A study of Mus musculus with 7 samples.

Results

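The acyl-CoA thioesterases are enzymes that cut fatty acyl-CoA into a free fatty acid and coenzyme A (CoA). Of this family, 10 genes were taken by symbol from the array annotation: Acot1, Acot2, Acot3, Acot4, Acot6, Acot7, Acot9, Acot11, Acot12 and Acot13. Each was represented by 1 probe set that carries only its symbol, so all 10 members were measured, among 19933 genes in all. Liver RNA of male C57BL/6 mice aged 4 months was hybridised to 7 Affymetrix Mouse Gene 1.0 ST arrays. The knockout group (3 arrays) received AAV-Cre, an adeno-associated virus that carries the Cre recombinase. The rescued group (4 arrays) received AAV-Cre together with AAV-Flag-HDAC3, which encodes the wild-type histone deacetylase HDAC3 with a Flag tag. Both groups thus carry the Cre virus, and the rescued livers carry an additional vector. The genotype labels read HDAC3 knockout and HDAC3 rescued wild-type, and they name neither a floxed allele nor the promoter that drives Cre. All mice ate freely and were killed at 5 pm (ZT10), 2 weeks after the injection. The question asked of the family is which of its transcripts differ between the livers labelled HDAC3 knockout and those labelled rescued.

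Acyl-CoA is the activated form in which fatty acids enter oxidation, lipid synthesis and protein acylation, and thioesterases set its level against that of the free acid. Type I members share an alpha/beta hydrolase fold, are very similar in sequence and lie side by side on mouse chromosome 12. Their products act in different compartments, ACOT1 in the cytosol, ACOT2 in mitochondria and ACOT3, ACOT4 and ACOT6 in peroxisomes. Type II members have a hotdog fold and little sequence in common with type I. In liver the type I genes are known as targets of PPAR alpha, the nuclear receptor that is active in fasting, and HDAC3 is a corepressor partner of several nuclear receptors.

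The promoters of 4 type I genes are shown because Acot2, Acot3 and Acot4 differed between the groups and their neighbour Acot1 did not pass the test. Each run is the 250 bases before the start of the gene, 5′ to 3′, from RefSeq on GRCm38.p6. They lie at chr12:83987611-83987860 (Acot2), chr12:84009252-84009501 (Acot1), chr12:84038129-84038378 (Acot4) and chr12:84051894-84052143 (Acot3), all on the + strand. Capitals mark matches on either strand to AGGTCA (the half-site that many nuclear receptors read), to AGGTCANAGGTCA with up to 2 mismatches (the direct repeat of the PPAR alpha type), to TATAAA and to CCAAT.

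Acot2: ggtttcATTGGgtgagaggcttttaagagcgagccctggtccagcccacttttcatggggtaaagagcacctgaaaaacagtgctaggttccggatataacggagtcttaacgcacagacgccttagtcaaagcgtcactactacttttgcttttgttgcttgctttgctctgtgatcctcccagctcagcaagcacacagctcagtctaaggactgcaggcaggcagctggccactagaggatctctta
Acot1: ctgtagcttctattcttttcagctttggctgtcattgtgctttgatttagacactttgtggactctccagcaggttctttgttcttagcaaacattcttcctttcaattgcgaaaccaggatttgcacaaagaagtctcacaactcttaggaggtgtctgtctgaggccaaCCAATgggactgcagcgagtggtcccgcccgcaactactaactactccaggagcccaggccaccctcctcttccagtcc
Acot4: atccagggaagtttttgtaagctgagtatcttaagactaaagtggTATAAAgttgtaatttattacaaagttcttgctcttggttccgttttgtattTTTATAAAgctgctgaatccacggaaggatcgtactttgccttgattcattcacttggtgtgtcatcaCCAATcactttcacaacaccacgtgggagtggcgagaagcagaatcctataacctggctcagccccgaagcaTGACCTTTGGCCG
Acot3: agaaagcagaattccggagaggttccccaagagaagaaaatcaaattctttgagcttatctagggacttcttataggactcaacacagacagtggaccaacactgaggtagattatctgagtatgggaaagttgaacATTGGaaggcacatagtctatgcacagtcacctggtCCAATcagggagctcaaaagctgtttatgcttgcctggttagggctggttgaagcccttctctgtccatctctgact

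In these windows the direct repeat matched in Acot4 alone, on the - strand in the last 13 bases before the start, and the AGGTCA match there is a part of it. Acot4 also held 3 matches to TATAAA, a pair of which overlap on opposite strands. CCAAT matched in all 4 windows, with 2 matches in Acot3 and 1 in each of the others. Of 32851 mouse promoter windows of the same length, 14.0% held AGGTCA, 3.24% the direct repeat, 12.4% TATAAA and 33.8% CCAAT. Among the 8 members with a promoter entry, the direct repeat was also found in Acot12. These matches are letters in a window and say nothing of binding, and Acot6 and Acot13 were not matched.

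Pairs of arrays of the same group had r = 0.994 to 0.997 over all genes, and pairs of different groups 0.988 to 0.993. The median intensity of the knockout arrays was 105 to 111 and that of the rescued arrays 96.3 to 102, so every knockout array had the higher median. The difference over all genes had a median of 0.09 on the log2 scale, 0.14 below the median level and 0.00 above it. Hdac3 itself was 1.40-fold lower in the knockout livers, with all 3 knockout values below all 4 rescued values, at a mean log2 intensity of 8.92 against 9.40, so its signal was lower but not lost. How far its probe set reads the transcript of the vector was not tested. Differences below are knockout minus rescued on the log2 scale, and a gene is called at an adjusted p under 0.05 in limma's moderated test over all genes. The labels call the arrays biological replicates and do not say whether animals were pooled. The p-values therefore set each difference against the spread between these samples, which limma moderates using all genes. The number of arrays limits the precision.

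In the knockout livers 3 of the 10 members were higher and none was lower. The higher members were Acot2, Acot3 and Acot4, all of type I, by 1.39-fold to 1.60-fold. As background, 14.4% of the 19933 genes were called, 9.54% as higher and 4.85% as lower. That split turned with the scaling, from 1901 higher and 966 lower as deposited to 842 and 1148 after quantile normalization, 517 and 2167 after median centring and 816 and 1146 after cyclic loess, while the members stayed at 3 higher and 0 lower. With an unadjusted p under 0.05 in the same limma fit, 4 members counted as higher and 0 as lower. Over all 19933 genes, 5149 counted as higher and 1966 as lower at that threshold. The median difference of the 10 members was 0.13, against 0.09 over all genes. The groups did not overlap for 4 members, and this was so for 29.6% of all genes.

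**Figure D1:**
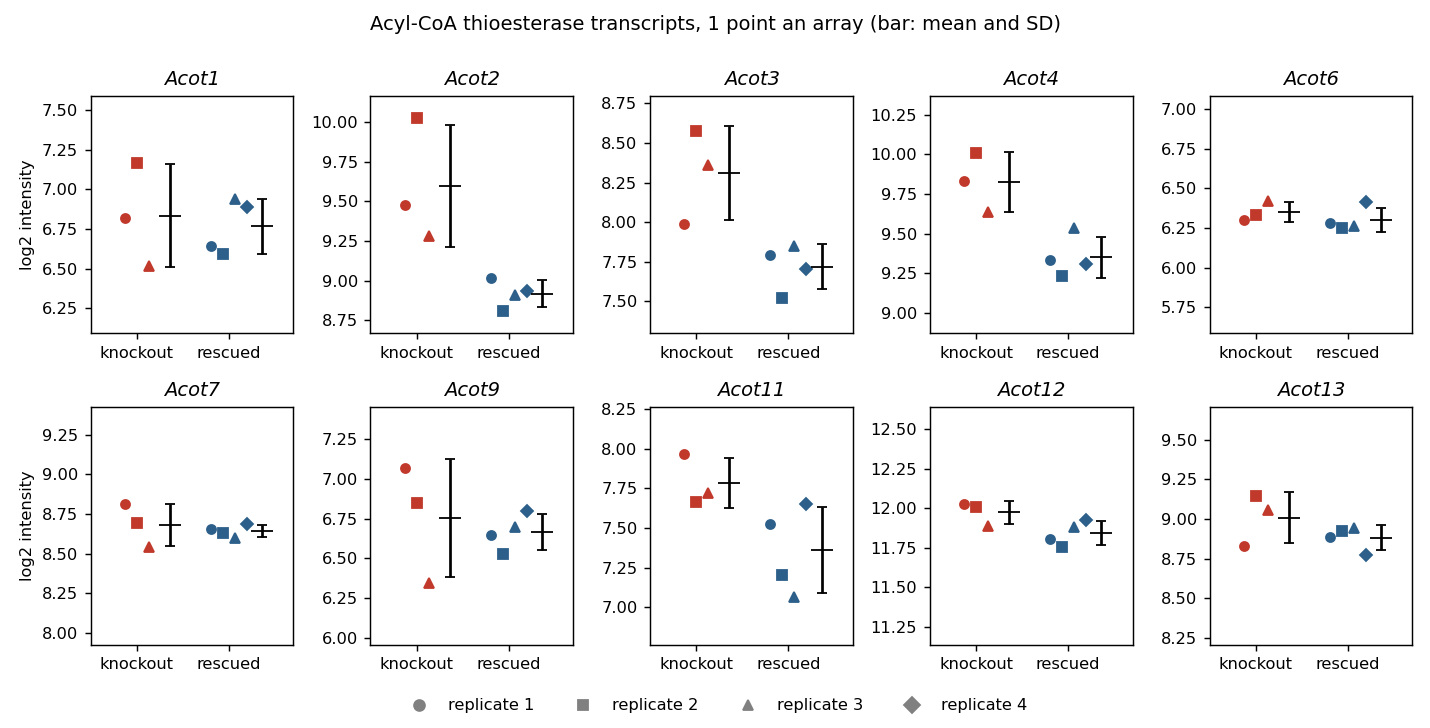
Log2 intensity (vertical axes, each spanning 1.5 units) of the 10 acyl-CoA thioesterase transcripts in knockout (red) and rescued (blue) livers, 1 point an array with the symbol giving the replicate, and bars for mean and SD. All knockout points lie above all rescued points for Acot2, Acot3, Acot4 and Acot11, and the groups overlap for the other 6 members.

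Acot2, the mitochondrial long-chain thioesterase, had the largest difference of the 10 members. Its log2 intensity was 9.48, 10.03 and 9.28 in knockout replicates 1, 2 and 3, and 9.02, 8.81, 8.91 and 8.93 in rescued replicates 1 to 4. Every knockout array was above every rescued array, and replicate 2 stood highest. The means were 9.60 ± 0.39 (SD, n = 3) and 8.92 ± 0.09 (SD, n = 4), a difference of 0.68 (SE 0.14) or 1.60-fold, with adjusted p = 0.0156 in limma's test. Without knockout replicate 2 the difference was 0.46, and it passed with each array left out in turn (adjusted p from 0.0101 to 0.0495).

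Acot3 and Acot4 encode peroxisomal enzymes, ACOT4 being the one that hydrolyses succinyl-CoA. Acot3 was at 7.99, 8.57 and 8.36 in the knockout and at 7.79, 7.52, 7.85 and 7.71 in the rescued arrays. The knockout values lay above the rescued ones, with the narrowest gap at knockout replicate 1. The means of 8.31 ± 0.30 (SD, n = 3) and 7.72 ± 0.14 (SD, n = 4) differed by 0.59 (SE 0.13), 1.51-fold, with adjusted p = 0.0165 in limma's test. Acot4 was at 9.83, 10.01 and 9.63 in the knockout and at 9.33, 9.23, 9.53 and 9.31 in the rescued arrays. Again no rescued array reached a knockout array, although rescued replicate 3 came close to knockout replicate 3. Its means of 9.82 ± 0.19 (SD, n = 3) and 9.35 ± 0.13 (SD, n = 4) differed by 0.47 (SE 0.10), 1.39-fold, with adjusted p = 0.0158 in limma's test. Without knockout replicate 2 neither gene kept its call in limma's test (difference 0.46 and adjusted p = 0.0518 for Acot3, 0.38 and 0.0505 for Acot4). Acot4 also lost it without knockout replicate 1, with a difference of 0.47 and adjusted p = 0.0615.

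Acot1, the cytosolic type I enzyme and the closest relative of Acot2, gave 6.82, 7.17 and 6.51 in the knockout and 6.65, 6.59, 6.94 and 6.89 in the rescued arrays. The knockout arrays held both the highest and the lowest value. The knockout mean exceeded the rescued mean by 0.07, with a 95% interval from -0.24 to 0.38 (adjusted p = 0.737 in limma's test), and it was -0.03 to -0.05 after the 3 rescalings of the arrays. Acot6, a further peroxisomal type I gene, ranged from 6.30 to 6.42 among knockout arrays, and the rescued arrays covered 6.25 to 6.41. Its difference was 0.05 (95% interval -0.10 to 0.20), or -0.07 to -0.09 after rescaling. The probe sets of the type I genes can cross-hybridise, since the genes are so alike in sequence, and how far each reads its relatives was not tested.

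The gap between the genes within each array was read as a description. No p-value is given for it, since the pairs were chosen for being called and not called. Acot2 minus Acot1 was 2.76 ± 0.10 (SD, n = 3) in the knockout and 2.15 ± 0.18 (SD, n = 4) in the rescued arrays on the log2 scale, so the gap was wider by 0.61 in the knockout livers. The widening over Acot1 was 0.52 for Acot3 and 0.40 for Acot4, and over Acot6 it was 0.63 for Acot2, 0.54 for Acot3 and 0.42 for Acot4. The groups did not overlap in 5 of the 6 pairs, the exception being Acot4 minus Acot6. The choice of pairs favours such a separation, so this count adds no support of its own.

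**Figure D2:**
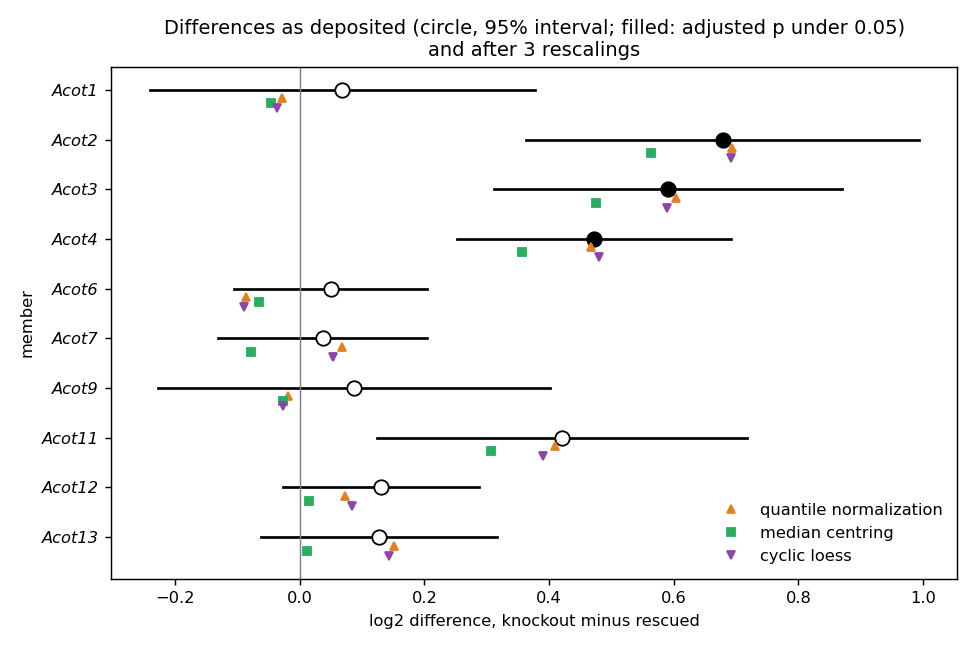
Log2 difference, knockout minus rescued (horizontal axis), for each of the 10 members (vertical axis), with circles and 95% intervals for the values as deposited and coloured symbols for 3 rescalings of the arrays. Filled circles mark adjusted p under 0.05, and Acot2, Acot3 and Acot4 stay between 0.36 and 0.69 in every rescaling shown.

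None of the 5 type II members passed the test. Acot11, a long-chain thioesterase that carries a START lipid-binding domain, came nearest. It was at 7.96, 7.66 and 7.72 in the knockout and at 7.52, 7.20, 7.06 and 7.65 in the rescued arrays. The groups did not overlap, but the lowest knockout value, 7.66 in replicate 2, only just exceeded the highest rescued value, 7.65 in replicate 4. The means were 7.78 ± 0.16 (SD, n = 3) and 7.36 ± 0.27 (SD, n = 4). The difference of 0.42 (95% interval 0.12 to 0.72), 1.34-fold, missed the threshold in limma's test (adjusted p = 0.0577). It passed without rescued replicate 1 (0.48, adjusted p = 0.0492) or rescued replicate 4 (0.52, adjusted p = 0.0401).

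Acot12, an acetyl-CoA hydrolase of liver with a START domain, had knockout values of 11.89 to 12.02 and rescued values of 11.76 to 11.93, which overlap. Its difference was 0.13 (95% interval -0.03 to 0.29; adjusted p = 0.208 in limma's test). Acot13, also called THEM2, is a small thioesterase that binds the phosphatidylcholine transfer protein encoded by Pctp. Its knockout values of 8.83 to 9.14 overlapped its rescued values of 8.77 to 8.94, with a difference of 0.13 (95% interval -0.06 to 0.32). Its partner gene Pctp rose 1.66-fold, from 10.90 ± 0.11 (SD, n = 4) to 11.64 ± 0.25 (SD, n = 3), with adjusted p = 0.00326 in limma's test. For both Acot12 and Acot13 the interval ends below the 0.47 measured for Acot4. The interval of Acot4 itself (0.25 to 0.69) overlaps both, and the genes were not tested against each other.

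Acot9 is a mitochondrial type II enzyme, and Acot7 a cytosolic one best known from brain. Acot9 spread from 6.34 to 7.07 among the knockout arrays, wider than the 6.52 to 6.80 of the rescued arrays. Its difference was 0.09 (95% interval -0.23 to 0.40) and turned to between -0.02 and -0.03 after each rescaling. Acot7 lay between 8.54 and 8.81 in knockout livers, around the 8.60 to 8.69 of the rescued livers, a difference of 0.04 (95% interval -0.13 to 0.20). It was -0.08 after median centring. Knockout replicate 3 was the lowest knockout array for both genes, and replicate 1 the highest.

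Levels were set against 1194 olfactory and vomeronasal receptor genes, which liver is not expected to express. All 10 members lay above at least 95.1% of these genes in both groups, with Acot6 the nearest to them. Knockout replicate 2 gave the highest knockout value for 5 of the 10 members, among them the 3 that were called. The same array was highest for 30% of all genes and for 34.9% of genes above the median level. It was highest for 12 of the 19 listed PPAR alpha genes, 9 of 16 CoA genes, 6 of 10 other acyl-CoA hydrolases and 6 of 7 endothelial markers. For acyl-CoA synthetases this was so in 6 of 19, and for acyl-CoA binding and lipid transfer proteins in 2 of 9. A high share in this array is thus not particular to the Acot and PPAR alpha genes. Knockout replicate 1 was highest for 51.2% of all genes. These shares were looked at after the values were seen, and what sets the arrays apart was not tested.

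The type I genes stand in the order Acot2, Acot1, Acot4, Acot3, Acot5 and Acot6 in the RefSeq table of GRCm38.p6. The order places the Acot1 gene between Acot2 and Acot4, both of which were called. Acot5, a peroxisomal relative outside the 10 members, was at 4.94, 4.33 and 4.28 in the knockout and at 4.20, 4.03, 4.15 and 4.24 in the rescued arrays. This is a level at which many receptor genes lie (Acot5 was above 52.9% of them in the knockout and 42.2% in the rescued group). The difference of 0.36 did not pass (adjusted p = 0.0925 in limma's test) and no fold is given. Beyond the cluster, none of the flanking genes Numb, Heatr4, Riox1, Dnal1, Pnma1 and Mideas was called, with differences from -0.23 (Numb, adjusted p = 0.0545 in limma's test) to 0.23 (Heatr4).

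**Figure D3:**
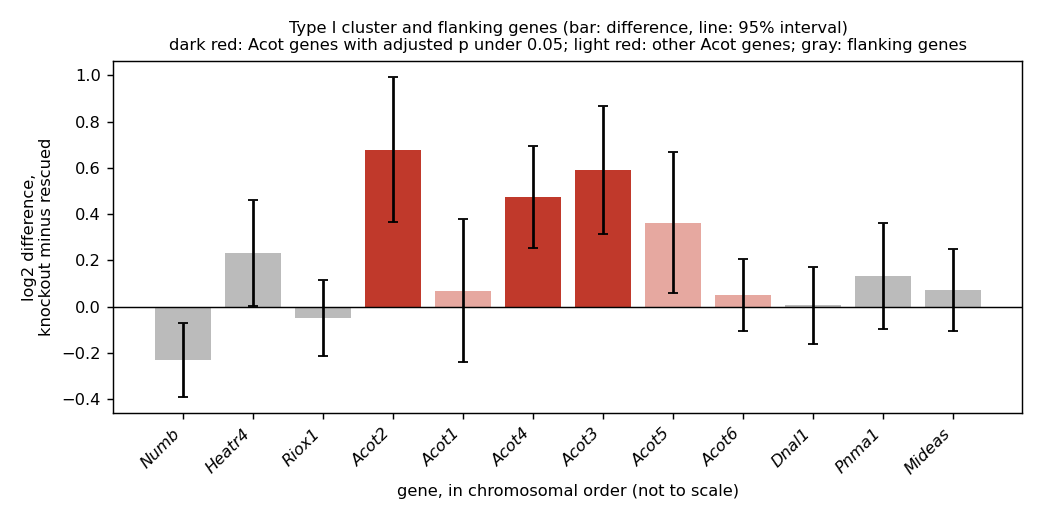
Log2 difference, knockout minus rescued (vertical axis), of the type I genes and their flanking genes in chromosomal order (horizontal axis, not to scale), with bars for the difference and lines for the 95% interval. Acot2, Acot4 and Acot3 (dark red) are at 0.47 to 0.68, while Acot1, Acot5 and Acot6 (light red, not called) are at 0.07, 0.36 and 0.05 and the flanking genes (gray) at -0.23 to 0.23.

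Genes that work on either side of the thioesterase reaction were described by lists. As background for each list, 9.54% of all genes were called higher and 4.85% lower. Of 19 measured acyl-CoA synthetases, which make the substrate that thioesterases cut, 5 rose and 2 fell in limma's test, and the median of the list was 0.09, the same as over all genes. The largest were Acsl4, a synthetase for arachidonate, 1.76-fold lower (adjusted p = 0.000298 in limma's test), and the mitochondrial short-chain synthetase Acss3, 1.75-fold higher. Acss2, the cytosolic acetate synthetase, was 1.59-fold higher and the fatty acid transporter Slc27a1 1.49-fold. After each of the 3 rescalings 3 synthetases were higher and between 1 and 3 lower, and with single arrays left out 3 to 6 were higher. Of 10 other acyl-CoA hydrolases, 1 was higher and 1 lower. The higher one was Hibch, the mitochondrial 3-hydroxyisobutyryl-CoA hydrolase of valine breakdown (1.33-fold, adjusted p = 0.0159), and the lower one Them4, a thioesterase-fold protein (1.44-fold, adjusted p = 0.0111). Hibch was not called without knockout replicate 1 or knockout replicate 2. The further Acot genes in this list did not pass, at a difference of -0.05 for the peroxisomal Acot8 and 0.14 for Acot10, a relative of Acot9.

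Of 16 genes that make, carry or break down CoA, 3 were higher and 0 lower in limma's test. The counts were likewise 3 and 0 at an unadjusted p under 0.05, where all 19933 genes gave 5149 and 1966. The pantetheinase Vnn1, which recycles pantothenate, had the largest difference (0.94). Coasy, the enzyme of the last steps of CoA synthesis, was 1.41-fold higher (adjusted p = 0.0173) and the mitochondrial CoA carrier Slc25a42 1.33-fold (adjusted p = 0.0111). The CoA-degrading hydrolase genes Nudt7 and Nudt19 gave 0.07 and 0.02. Of 9 acyl-CoA binding and lipid transfer proteins, Pctp was higher and the peroxisomal Acbd5 1.27-fold lower (adjusted p = 0.0458). With an array left out, the list held a lower gene in 1 of the 7 fits. Dbi, the main acyl-CoA binding protein, differed by 0.17 without passing (adjusted p = 0.0994).

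Of 19 measured genes of PPAR alpha and its targets, 13 rose and 0 fell in limma's test, where 9.54% of all genes rose and 4.85% fell. By unadjusted p under 0.05 in that fit, 15 rose and 0 fell, beside 5149 and 1966 of all 19933 genes. The called ones ranged from 0.35 for Acadm to 1.35 for Cyp4a14, with a median over the whole list of 0.52. Ppara itself differed by -0.04 (adjusted p = 0.664). The count of 13 higher was the same after each of the 3 rescalings, and this list was chosen with results of these data known.

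**Figure D4:**
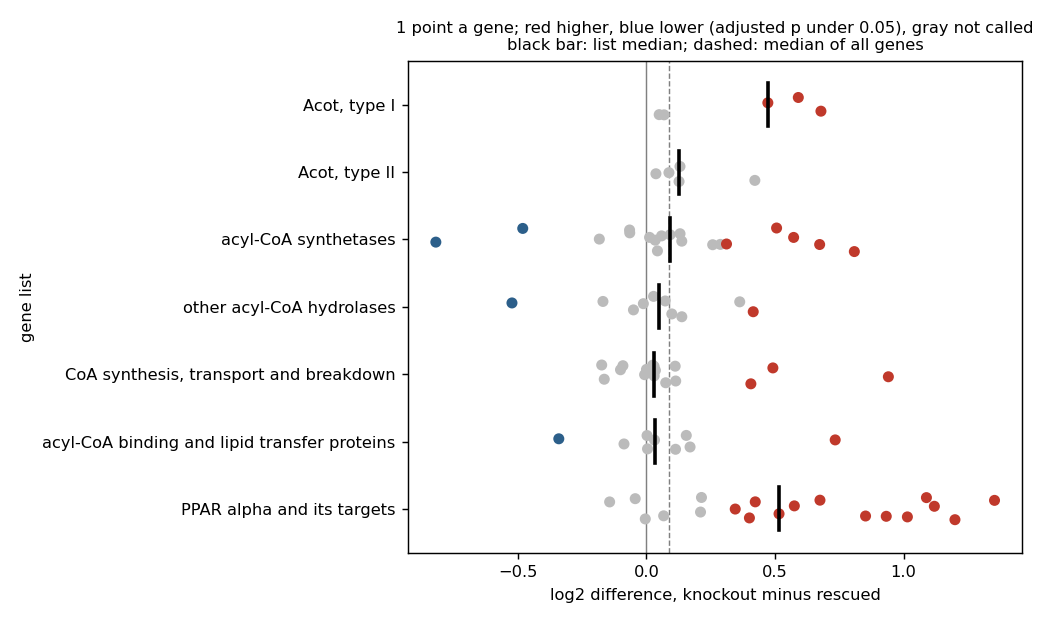
Log2 difference, knockout minus rescued (horizontal axis), of every measured gene of each list (vertical axis), 1 point a gene, red for higher, blue for lower and gray for not called, with a black bar for the list's median. The median is 0.47 for type I, 0.13 for type II, 0.52 for the PPAR alpha list and 0.09 for all genes (dashed line).

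Markers of the cells that a liver holds were read beside these results. In limma's test 0 of 7 hepatocyte, 0 of 8 Kupffer cell and macrophage, 0 of 5 cholangiocyte, 0 of 7 leukocyte and 0 of 4 adipocyte markers were called. At an unadjusted p under 0.05 these lists held 1 lower, 1 lower, 2 higher, 2 higher and 2 higher genes, the stellate cell and fibroblast list 4 higher, the endothelial list 1 lower, and the brain and muscle list 6 higher and 1 lower. As background, 5149 of all 19933 genes were higher and 1966 lower by unadjusted p. Of 7 stellate cell and fibroblast markers 1 was higher (Lrat, difference 0.32), of 7 endothelial markers 1 was lower (Clec4g, -0.29), and of 7 brain and muscle markers Snap25 (0.24) and Acta1 (0.32) were higher and Syt1 (-0.92) was lower. The mean log2 level of the hepatocyte markers was 13.14 to 13.23 over knockout arrays, with 13.19 to 13.25 over rescued arrays. Of the 7, 4 had a positive difference, among them Alb at 0.05. The lower one by unadjusted p was Hnf4a, at -0.29, the largest difference of that list in size. The leukocyte markers had means of 6.12 to 6.23 against 6.02 to 6.09, and the adipocyte markers, among them Adipoq at a level above only 54.5% of receptor genes in the knockout group, 5.62 to 5.87 against 5.51 to 5.65. The stellate cell and fibroblast markers had means of 8.45 to 8.50 against 8.29 to 8.44, and the brain and muscle markers 6.41 to 6.54 against 6.33 to 6.41. For cholangiocytes they were 6.24 to 6.32 against 6.10 to 6.19. Kupffer cell and macrophage markers (8.28 to 8.29 against 7.99 to 8.41) and endothelial markers (8.88 to 9.10 against 8.95 to 9.04) overlapped. The mean over all genes was itself apart, at 7.04 to 7.12 against 6.99 to 7.02. The median differences were 0.24 for brain and muscle, 0.19 for stellate cells and fibroblasts, 0.18 for adipocytes, 0.12 for Kupffer cells and macrophages, 0.12 for leukocytes, 0.10 for cholangiocytes and 0.00 for hepatocytes and endothelial cells. Over the whole array the median was 0.14 for genes below the median level and 0.00 for genes above it. The lists differ in level, so no single one of these values is the background for all of them. The part of these cells in the results was not tested. In whole liver, fewer cells of a type and less RNA per cell cannot be told apart.

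The genes most like Acot2 over the 7 arrays were Pmpca, a subunit of the mitochondrial processing peptidase (r = 0.988), Cyp2g1 (0.986) and Olfr869 (0.986). For Acot4 they were Rasgef1a (0.986), Olfr390 (0.986) and Erlin1 (0.984), and for Acot3 Akap1 (0.994), Scgb1a1 (0.985) and Dtna (0.981). None of these is an Acot gene, and only Cyp2g1 was called (adjusted p = 0.0312 in limma's test). Their differences ran from 0.11 (Akap1) to 0.32 (Cyp2g1). Olfr869 and Olfr390 belong to the receptor genes that liver is not expected to express. The 7 points share their arrays and fall into 2 groups, and the highest of many correlations is picked, so these values are a description.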

How the data were processed

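The data are 7 Affymetrix Mouse Gene 1.0 ST arrays of liver RNA. The deposited values are linear intensity values, 1 per probe set and array, and RMA and Partek are named, without versions or roles, per the submitters' processing notes. The scaling applied last, the genome build and detection calls are not given in the sources used here. Log2 was taken. For each gene the probe set of highest mean among those with a single symbol was kept (19933 genes from 27541 rows), and no dim gene was removed. Groups came from the labels and were tested in R 4.3.3 by lmFit and eBayes of limma 3.58.1, two-sided and without covariates. P-values were adjusted across the 19933 genes by the Benjamini-Hochberg method and called under 0.05. The fit was tested on simulated data. No 2 arrays shared more than 3.79% of equal values. Alternatives were 3 rescalings (quantile, median centring, cyclic loess), genes above the median level, all rows, mean of probe sets, trend with robust spread, array weights, a replicate block, other thresholds and each array left out. Named genes are the members, up to 4 called genes of each list by size of difference, called neighbours, Hdac3 and the 3 genes most correlated with each of the 3 members of smallest p. Acadm, Ppara, Acot5, Acot8, Acot10, Nudt7, Nudt19, Dbi, Alb, Hnf4a, Adipoq and uncalled flanking genes were added after their values were seen. The members and lists were chosen with earlier results of these data known, and the within-array gaps were chosen after the data were seen. Promoters and gene names came from RefSeq (GRCm38.p6). Figures used matplotlib 3.10.9.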

Additional observations from a re-analysis of the deposited data

How the results depend on the processing

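The members called higher numbered 3 as deposited and 3 or 4 under every alternative other than a threshold of 0.01, where limma called 0, and the leaving out of single arrays, where the count ran from 1 (without knockout replicate 2) to 4. The fourth was Acot11, called with trend and robust spread (adjusted p = 0.0489), at a threshold of 0.1 and with the replicate block (difference 0.52, adjusted p = 0.00804 in limma's test). The block is not a pairing given by the labels: same-numbered arrays had deviations correlated at 0.151, 0.00276 and 0.0053, and not every array matched its own number best. Rescued replicate 4, which has no partner, adds nothing in that fit. Among genes above the median level only 7 members were tested, since Acot1, Acot6 and Acot9 lay below it. After median centring Acot3 and Acot4 passed narrowly (adjusted p = 0.0401 and 0.0427 in limma's test). No member was called lower in any setting. Differences that turned sign belong to members that were not called. After quantile normalization these were Acot1 (-0.028), Acot6 (-0.085) and Acot9 (-0.018), after median centring Acot1 (-0.046), Acot6 (-0.065), Acot7 (-0.078) and Acot9 (-0.027), and after cyclic loess Acot1 (-0.037), Acot6 (-0.090) and Acot9 (-0.026). With single arrays left out, Acot1 ran from -0.098 (without knockout replicate 2) to 0.229, Acot7 from -0.028 (without knockout replicate 1) to 0.106 and Acot9 from -0.070 (without knockout replicate 1) to 0.293. The cause was not tested. Genes called over the whole array were 1901 higher and 966 lower as deposited, 842 and 1148 after quantile normalization, 517 and 2167 after median centring, 816 and 1146 after cyclic loess, and 1233 and 705 with the block. With 1 array left out they ran from 449 to 2199 higher and from 417 to 1064 lower.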

Other observations

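Genes that flank the type II members were read in the same way, as the 3 nearest measured protein-coding genes on each side. Together with the flanks of the type I cluster and Acot5, which lies inside it, they came to 37 genes. Of these, 5 were higher and 1 lower in limma's test. That share is near the 14.4% called over all genes, so the count says nothing particular about these neighbours. The lower one was Prdx4, next to Acot9 and the gene of a peroxiredoxin of the secretory pathway, at 7.35 ± 0.14 (SD, n = 3) in the knockout against 8.04 ± 0.12 (SD, n = 4) in the rescued livers, 1.61-fold lower (adjusted p = 0.00150). Sat1, the polyamine acetyltransferase on the other side of Acot9, was 1.25-fold higher (adjusted p = 0.0446). Near Acot13, Tdp2 was 1.24-fold higher, BC005537 1.21-fold and D130043K22Rik 1.21-fold, and near Acot7 the receptor gene Gpr153 was 1.28-fold higher (adjusted p = 0.0253). The neighbours of Acot11 and Acot12 held no called gene.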
